A study of Mytilus coruscus with 2 samples.

Results

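Of the 3465 Nrf2 ChIP-seq peaks called in the digestive gland of *Mytilus coruscus*, 167 peaks (4.82%) were chosen by gene name. They lay nearest to 113 genes, out of 2548 nearest genes in all. The best database matches of the 113 genes hold a word for the extracellular matrix or cell adhesion, though not every match is such a component. A peak was taken when the Swiss-Prot or KEGG text of its nearest gene held 1 of 12 words (collagen, cadherin, integrin, laminin, fibrillin, fibronectin, mucin, tenascin, contactin, thrombospondin, hemicentin or cell adhesion). Texts that named C1q were left out, which removed 2 peaks near C1q-like genes with collagen X as the KEGG match, at 4.75-fold and 2.11-fold. The choice rested on gene names alone and used no measured value. The names are the closest sequences in other species, so a gene is described here as matching a protein, and for 41 of the 113 genes the word came from KEGG while Swiss-Prot gave another name.

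Chromatin was cut, and fragments were recovered with an antibody in 1 ChIP library and set against 1 input library of the same tissue (unselected chromatin). The antibody entry of the ChIP sample names no target, and that it was a custom-made antibody to Nrf2 is taken from the description of the series and the study's text. No treatment is given for the mussels behind these libraries, and there were no replicates, so no value below has a replicate error and no comparison carries a test. Confidence intervals (95%, Wilson for shares and order statistics for medians) cover counting error only and treat peaks as independent, although peaks of 1 gene share its name and position. In the sources used here nothing says how many mussels were pooled or which cells of the gland gave the chromatin.

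Nrf2 is a transcription factor that, in vertebrates, is freed from its inhibitor Keap1 under oxidative or electrophile stress and activates antioxidant and detoxification genes. The extracellular matrix is the protein mesh around cells. Collagens form its fibres and sheets, laminins and hemicentins belong to or border the basement membrane, mucins form gels and coats on epithelia, and integrins and cadherins join cells to the matrix and to each other. In bivalves the digestive gland is a branching epithelium of tubules and ducts that takes up food and handles foreign compounds, and it rests on such a matrix.

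The strongest peak of the group lay just upstream of a gene start, and the next in rank lay deep inside a gene. It was found 400 bp upstream of the transcription start site (TSS) of M.coruscus_chr10_0097, which matches ITFG3, a membrane protein named for the FG-GAP repeats it shares with integrin alpha chains (chromosome 10, 3825184 to 3825656). Its pileup, the number of ChIP fragments over the summit, was 74, and its fold enrichment, the pileup relative to the local background of the input, was 16.5. It ranked 14 among the 3465 peaks. The gene entered the group only through its KEGG name, integrin alpha FG-GAP repeat containing protein 3, and neither database matched it to an integrin chain. The next in strength were both in introns of M.coruscus_chr10_0189, a gene matching collagen XXI in Swiss-Prot and collagen VI in KEGG, at 16.1-fold with 58 fragments and at 11.8-fold with 53 fragments. They stood 196428 bp and 201944 bp downstream of the annotated start. The E-values of the gene (matches this good to be met by chance) were 1e-12 in Swiss-Prot and 1e-17 in KEGG. The KEGG match is an uncharacterized protein assigned to collagen VI.

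Most peaks of the group were not of this size. Fold enrichment had a median of 4.88 (95% interval 4.68 to 5.14) with quartiles at 3.90 and 6.04, and over all peaks a median of 4.63 (4.59 to 4.68) with quartiles at 3.82 and 5.64. At least 4-fold enrichment was reached by 118 of the 167 peaks (70.7%, 63.4% to 77.0%), against 69.7% of all peaks, and at least 8-fold by 10 peaks (5.99%, 3.28% to 10.7%), against 6.18%. Both shares were thus near the rate over all peaks. The median pileup was 16 fragments in the group and over all peaks alike, so a typical peak rests on few fragments. None of the group was among the 10 peaks of highest fold, 3 were among the first 50 and 7 among the first 100. The plot of fold enrichment by family shows the few peaks that stand to the right of the main range.

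**Figure D1:**
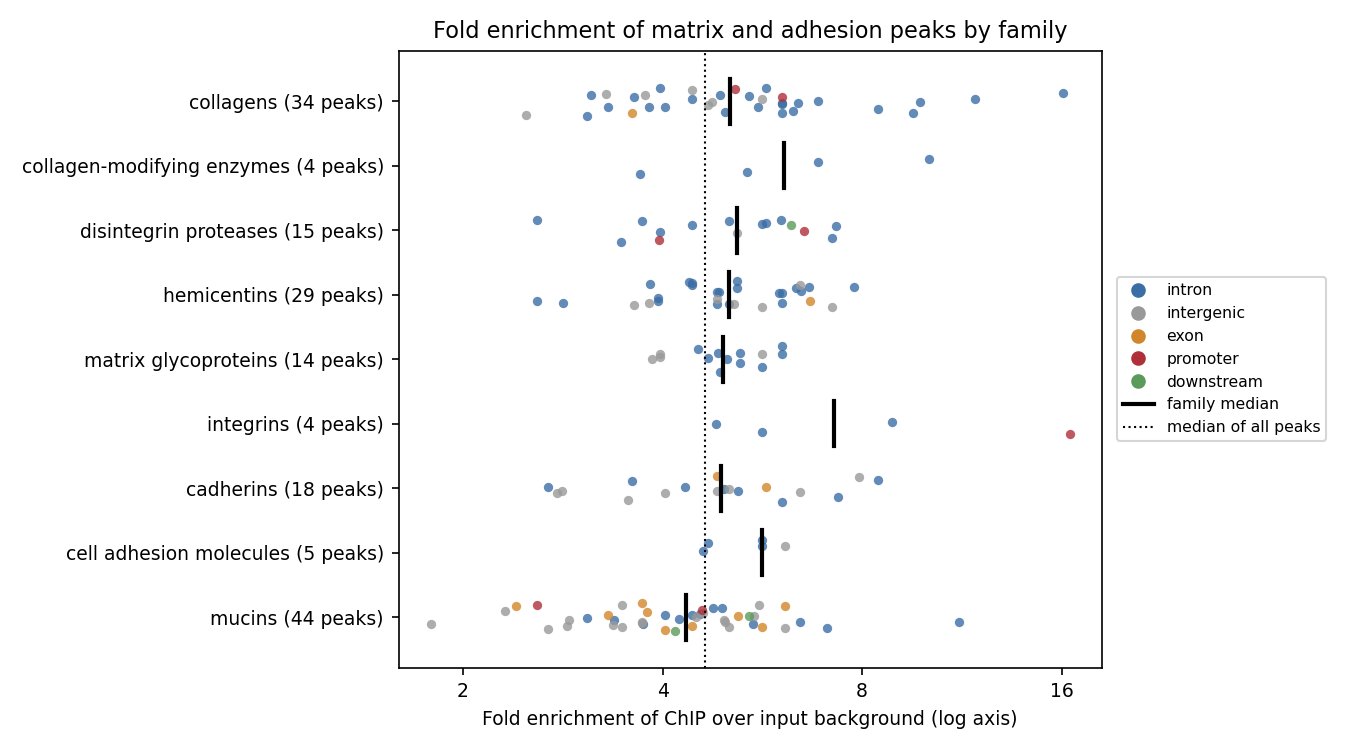
Fold enrichment (log axis) of each of the 167 matrix and adhesion peaks, with 1 row for each family and 1 point for each peak coloured by region class; black bars are family medians and the dotted line is the median of all peaks, 4.63. Points are spread vertically only to keep them apart. Mucins sit lowest with a median of 4.33, and the 3 points farthest right are the ITFG3 promoter peak (16.5) and the pair of collagen XXI/VI intron peaks (16.1 and 11.8).

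The families differed in number of peaks. Mucins held 44 peaks of 29 genes, collagens 34 peaks of 20 genes, hemicentins 29 peaks of 19 genes, cadherins 18 peaks of 14 genes, proteases with a disintegrin domain 15 peaks of 10 genes and the matrix glycoproteins (laminin, fibrillin, fibronectin, tenascin and thrombospondin matches) 14 peaks of 13 genes. Integrins and integrin-like proteins had 4 peaks of 2 genes, collagen-modifying enzymes 4 peaks of 2 genes, and other cell adhesion molecules 5 peaks of 4 genes. The word contactin matched 0 peaks. The word integrin is part of disintegrin, and 5 peaks of these proteases were matched through that word alone. The other 10 also held another word of the rule, as thrombospondin is part of the ADAMTS names.

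Collagens are the main fibre and sheet proteins of the matrix. Their 34 peaks had a median fold enrichment of 5.05 (4.03 to 6.05) and a range of 2.49 to 16.1. At least 8-fold was reached by 5 of the 34 (14.7%, 6.45% to 30.1%), against 6.18% (5.42% to 7.03%) of all peaks, and these intervals overlap. M.coruscus_chr10_0189 gave 2 of the 5, and M.coruscus_chr10_0079, whose Swiss-Prot match is not a collagen, gave another. The whole group had 10 peaks at or above 8-fold. Of the 34, 24 were in introns, 7 between genes, 1 in an exon and 2 in promoter classes. They included matches to network collagens (IV, VIII, X), to the beaded-filament collagen VI, to the fibril-associated collagens XII and XXI and to the fibrillar collagen XXVII.

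Of the genes with a collagen match, M.coruscus_chr13_0045 carried the densest set of peaks. It matches collagen VIII in Swiss-Prot and collagen X in KEGG, at E-values (matches this good to be met by chance) of 2e-13 and 1e-09. Collagen X was also the KEGG match of the 2 C1q-like genes left out. The names alone do not settle whether M.coruscus_chr13_0045 is a collagen or a C1q-like gene. Its 5 peaks were all intronic and fell within 5290 bp of chromosome 13 (2234500 to 2239789), between 12607 and 17376 bp downstream of the TSS. In order of distance they had 68, 52, 22, 16 and 57 fragments. Their fold enrichments, in the same order, were 6.40, 9.77, 6.29, 3.12 and 4.97. The peak with the most fragments was therefore not the one with the highest fold, because the background under it (the input background plus 1, computed as pileup plus 1 over fold) was 10.8, against 5.42 under the 9.77-fold peak.

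M.coruscus_chr10_0079 showed enrichment on both sides of its start. It matches the collagen-like macrophage receptor MARCO, a scavenger receptor of vertebrate macrophages with a collagenous stalk, in Swiss-Prot, and the collagen I and collagen II chains in KEGG, so the database names disagree on whether it is a receptor or a matrix collagen. Its 4 peaks lay 4735 bp upstream (10 fragments, 4.43-fold), 2569 bp upstream in the promoter(3k) class (14 fragments, 6.05-fold), 3929 bp downstream in an intron (14 fragments, 6.05-fold) and 8462 bp downstream in an intron (30 fragments, 8.45-fold). The background under them was low, from 2.48 to 3.67.

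Collagen IV is the sheet-forming collagen of basement membranes. The longest peak of the group, 1709 bp, lay in an intron of a gene matching its alpha-1 chain, M.coruscus_chr11_2029 (chromosome 11, 77305456 to 77307164), with 51 fragments and a 9.54-fold enrichment 22751 bp downstream of the TSS. A further intron peak at a gene matching the same chain, M.coruscus_chr8_2695, had 15 fragments and 5.57-fold. By KEGG name alone M.coruscus_chr8_1162 also matched collagen IV, while its Swiss-Prot match was the heavy metal-binding protein HIP of *Mytilus edulis*. Its 3 peaks were intergenic, 39388 to 88623 bp from the TSS, at 2.49-fold to 3.76-fold, and the lowest of them had 68 fragments over a background of 27.7.

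Collagen VI forms beaded filaments that tie cells to the surrounding matrix. M.coruscus_chr14_0958, a collagen VI match, had 3 intron peaks of 16, 14 and 10 fragments (6.85-fold, 6.05-fold and 4.43-fold) 31085 to 36980 bp downstream of its TSS. M.coruscus_chr14_0750, with the same best matches, had 1 intron peak of 14 fragments at 6.05-fold. The adjacent genes of chromosome 7, M.coruscus_chr7_1348 (matching collagen VI) and M.coruscus_chr7_1349 (matching cartilage matrix protein in Swiss-Prot and collagen VI in KEGG), each had 1 intron peak, at 3.08-fold and 5.72-fold. M.coruscus_chr14_1619, which matches collagen XII in Swiss-Prot and collagen VI in KEGG, was the only collagen gene with a promoter(1k) peak, 689 bp upstream of its TSS at 5.14-fold (27 fragments), and it had a second peak 1179 bp downstream in an intron at 4.88-fold (56 fragments). Both were broad, at 982 bp and 1049 bp, and their summits were 1868 bp apart.

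Collagen chains are hydroxylated and glycosylated on lysine residues in the endoplasmic reticulum before they are secreted. All 4 peaks of genes matching these enzymes were in introns. M.coruscus_chr1_3879 matches a family 25 glycosyltransferase, whose vertebrate relatives add galactose to collagen, and its 3 peaks lay 7074, 11647 and 18133 bp downstream of the TSS. They had 16, 33 and 27 fragments and fold enrichments of 6.85, 5.36 and 10.1. M.coruscus_chr13_0161 matches lysyl hydroxylase (procollagen-lysine dioxygenase), which prepares the same residues, and had 1 peak of 29 fragments at 3.70-fold over a background of 8.12.

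Proteases of the ADAM and ADAMTS families cut cell-surface and matrix proteins. Genes with such a match had 15 peaks, with a median of 5.18-fold (3.95 to 6.25) and a range of 2.59 to 7.31. Of these, 11 were in introns, 2 in promoter classes, 1 between genes and 1 downstream. M.coruscus_chr13_1913, matching ADAM12 in KEGG, carried the promoter peak of the group with the most fragments, 116, located 1002 bp upstream of the TSS (chromosome 13, 82664232 to 82665325) at 6.54-fold over a background of 17.9. Its other peak, in the downstream class 1492 bp from the TSS, had 52 fragments at 6.25-fold. The 2 peaks were 1094 bp and 1172 bp long and lay on either side of the TSS.

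Among the other proteases, the second promoter peak belonged to M.coruscus_chr3_3056, with a summit 35 bp downstream of the TSS, 9 fragments and 3.95-fold. That gene matches ADAMTS18 in Swiss-Prot at an E-value of 2e-41 and, at a lower E-value, ADAMTS6 in KEGG. M.coruscus_chr2_2264, matching ADAM23 in Swiss-Prot and ADAM12 in KEGG, had the highest fold of the family, 7.31 (20 fragments), and a second intron peak at 4.43-fold. The next, at 7.20-fold with 19 fragments, lay 97570 bp downstream in an intron of M.coruscus_chr14_1509. That gene matches ADAMTS19 in Swiss-Prot at an E-value of 1e-18, but TBC1 domain family member 4, another kind of protein, in KEGG at 4e-75. M.coruscus_chr9_0230, matching the nematode ADAM protein MIG-17, which guides cell migration in *Caenorhabditis elegans*, had 3 intron peaks within 2954 bp at 6.04-fold, 3.46-fold and 2.59-fold. M.coruscus_chr11_2128 matches ADAM10, the protease that cuts Notch and sheds many adhesion proteins, and had 1 intron peak of 13 fragments at 5.64-fold.

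Hemicentins are long extracellular proteins built of immunoglobulin repeats that fasten basement membranes of neighbouring tissues to one another. Their 29 peaks had a median of 5.05-fold (4.43 to 6.05) within a range of 2.59 to 7.77. None reached 8-fold and none fell in a promoter class, while 21 were in introns, 7 between genes and 1 in an exon. For 13 of the 19 genes the word came from KEGG only, with Swiss-Prot names such as titin, coadhesin, nephrin or lachesin, which are themselves built of repeated domains.

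M.coruscus_chr2_2751, which matches hemicentin-1 in both databases, had 3 intron peaks at 52130, 142531 and 144061 bp downstream of the TSS. They had 14, 10 and 11 fragments, at 6.05-fold, 4.43-fold and 4.84-fold. M.coruscus_chr11_0008, matching titin in Swiss-Prot and hemicentin-1 in KEGG, had 5 peaks within 16593 bp, 4 of them intronic and 1 exonic. The exon peak had the most fragments, 65, and the highest fold, 6.67, 9485 bp downstream of the TSS. The intron peak closest to it, with 43 fragments, had a fold of 2.59 over a background of 17.0. The highest fold of the family, 7.77, belonged to a single intron peak of M.coruscus_chr8_2391 with 20 fragments, 44882 bp downstream of the TSS. An intergenic peak 27765 bp upstream of M.coruscus_chr12_0004 followed at 7.20-fold with 19 fragments.

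Laminins, fibrillins, fibronectin, tenascins and thrombospondins are large glycoproteins that link cells, collagens and growth factors. The 14 peaks of this family were alike in size, from 3.85-fold to 6.06-fold around a median of 4.94 (3.96 to 5.64), and their background was low, with a median of 2.78 and none in the uppermost 10% of background over all peaks. Of the 14, 10 were in introns, and the median distance of these to the TSS was 47410 bp. The intron peak of M.coruscus_chr1_3134, which matches laminin alpha, lay 58842 bp downstream with 12 fragments at 4.53-fold. That of M.coruscus_chr1_2281, matching fibronectin, lay 62395 bp downstream with 12 fragments at 5.00-fold. That of M.coruscus_chr8_1655, matching fibrillin-2, a microfibril protein, lay 47581 bp downstream with 12 fragments at 5.24-fold.

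Cartilage oligomeric matrix protein is a member of the thrombospondin family. Both genes that match it, M.coruscus_chr6_0058 and M.coruscus_chr6_2278, had 1 intron peak, at 5.64-fold with 13 fragments and at 4.68-fold with 15 fragments. The highest value of the family came from M.coruscus_chr2_3266, at 6.06-fold with 32 fragments and a second peak at 5.24-fold. KEGG names it fibrillin-2, while its Swiss-Prot match is the receptor Notch, which also carries many EGF repeats. In the same way M.coruscus_chr6_2703 and M.coruscus_chr8_0557 were matched only by the name FANK1, a protein with fibronectin type 3 and ankyrin repeats that is not a matrix protein, at 4.85-fold and 6.05-fold.

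Integrins are the receptors that couple the matrix to the cytoskeleton. The ITFG3 match is not to an integrin chain, and 1 other gene matched such a chain. M.coruscus_chr2_3437, matching integrin alpha-4 in Swiss-Prot and alpha-9 in KEGG, had 3 intron peaks spread over 140811 bp of chromosome 2, at 63775, 109259 and 203878 bp downstream of the TSS. Fragment numbers were 21, 13 and 21, and the fold enrichments 8.87, 5.64 and 4.81. The first and the last had equal pileups, and the background was 2.48 under the first and 4.57 under the last.

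Cadherins are calcium-dependent receptors that hold cells to one another, and the giant Fat and CELSR members also set the polarity of epithelial cells. The 18 cadherin peaks had a median of 4.90-fold (3.60 to 6.06) and ranged from 2.68 to 8.46, with 8 in introns, 8 between genes, 2 in exons and 0 in promoter classes. The highest was an intron peak of M.coruscus_chr10_2244, matching cadherin-23, a cadherin of hair-cell tip links in vertebrates, with 42 fragments at 8.46-fold and a length of 1059 bp. Intergenic peaks 20675 and 24557 bp upstream of M.coruscus_chr1_1732, matching a protein with cadherin-like and esterase domains (CPED1), reached 6.45-fold and 7.90-fold. M.coruscus_chr9_0557 had intron peaks at 7.36-fold (26 fragments) and 3.60-fold (43 fragments, background 12.2). Its KEGG orthology is CELSR, and its Swiss-Prot match is the neural cell adhesion molecule NCAM1.

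The Fat type was met most often. M.coruscus_chr3_3090, which matches Fat 4 in both databases, had an intron peak 125208 bp downstream of the TSS (16 fragments, 6.06-fold) and an exon peak 29367 bp downstream (11 fragments, 4.84-fold). Another exon peak, at 5.73-fold with 21 fragments, lay in M.coruscus_chr10_2368, a Fat 4 match in KEGG only. The gene matching neural cadherin of *Drosophila*, M.coruscus_chr5_0489, had the lowest fold of the cadherins, 2.68 with 16 fragments. Protocadherin-11 matches gave peaks of 2.77-fold and 4.03-fold on either side of the start of M.coruscus_chr3_2883, 3.54-fold upstream of M.coruscus_chr4_0686 and 5.04-fold upstream of M.coruscus_chr4_0166, which matches protocadherin-11 in KEGG and protocadherin-9 in Swiss-Prot.

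Other adhesion molecules of the immunoglobulin class gave 5 peaks with a narrow range, 4.60-fold to 6.12-fold, and 12 to 17 fragments. M.coruscus_chr14_1601 matches sidekick-1, a synaptic adhesion protein of vertebrates, and had an intergenic peak at 6.12-fold. M.coruscus_chr6_2077 matches cell adhesion molecule 3 and had an intron peak 528 bp downstream of its TSS at 5.64-fold, the intron peak of the group closest to a start. M.coruscus_chr8_2141, a match to the *Drosophila* relative of DSCAM, had intron peaks at 5.64-fold and 4.68-fold whose summits were 542 bp apart, the smallest gap of the group.

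Mucins are heavily glycosylated proteins with long repeats rich in threonine, serine and proline. The 44 mucin peaks had the lowest median fold of the 9 families, 4.33 (3.73 to 4.77), and 26 of them (59.1%, 44.4% to 72.3%) reached 4-fold, against 69.7% of all peaks. Introns held 13 (29.5%, 18.2% to 44.2%), against 52.4% of named and 44.9% of all peaks. Exons held 9 (20.5%, 11.2% to 34.5%), against 5.98% of named and 5.25% of all peaks. Another 18 were between genes, 2 downstream and 2 in promoter classes. The input background under the mucin peaks was also the highest of the large families, with a median of 4.56, against 3.26 over all peaks. Of the 44, 9 (20.5%) were in the uppermost 10% of background over all peaks (10.8 or more). Background is computed here from pileup and fold, so it is not a measure independent of the lower folds. Why it was higher under mucin peaks was not tested. For 24 of the 29 genes the word mucin came from KEGG only.

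The strongest mucin peak stood apart from the rest. It lay in an intron of M.coruscus_chr8_2381, which matches mucin-17 in KEGG and VWDE, a protein with von Willebrand factor D and EGF domains, in Swiss-Prot, and had 70 fragments at 11.2-fold, 10938 bp downstream of the TSS (chromosome 8, 108858714 to 108859016). A second intron peak of this gene had 14 fragments at 4.55-fold. M.coruscus_chr8_2511, with the same pair of matches, had the next highest fold of the family at 7.09 (25 fragments, 126982 bp downstream) and a further peak at 4.03-fold. M.coruscus_chr1_3643, a mucin-1 match in KEGG with a WAP-domain protein as its Swiss-Prot match, had 4 intron peaks at 4.77-fold, 5.48-fold, 3.07-fold and 6.45-fold, 20464 to 40269 bp downstream.

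Low folds of some mucin-like genes stood over high background. At M.coruscus_chr13_0877, whose KEGG match is a threonine-rich glycoprotein assigned to mucin-3/17, 5 peaks over 46779 bp had 88, 30, 87, 126 and 58 fragments but fold enrichments of only 4.97, 2.87, 4.92, 3.47 and 1.79, over backgrounds of 17.9, 10.8, 17.9, 36.6 and 33.0. The last is the lowest fold of the whole group. A promoter(2k) peak 1503 bp upstream of M.coruscus_chr3_3129, matching the gel-forming mucin MUC5AC, had 112 fragments and 2.59-fold over the highest background of the group, 43.7. Near M.coruscus_chr11_0309, matching mucin-22, 3 intergenic peaks had 2.31-fold to 3.47-fold over backgrounds of 9.51 to 11.7. By contrast an exon peak of M.coruscus_chr14_0025, matching the gel-forming mucin MUC5B in KEGG, had 16 fragments at 6.12-fold 1473 bp downstream of its TSS.

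**Figure D2:**
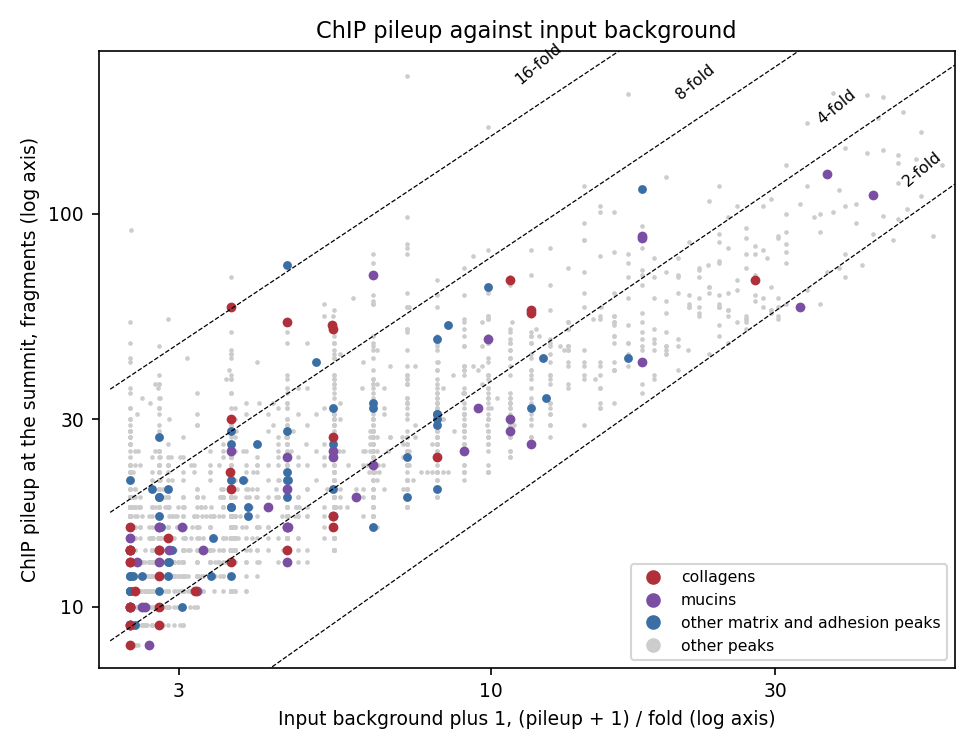
ChIP pileup at the summit in fragments against the input background plus 1 (both log axes) for collagen peaks (red), mucin peaks (purple), the other matrix and adhesion peaks (blue) and all other peaks (grey); dashed lines mark 2-fold, 4-fold, 8-fold and 16-fold enrichment, and 22 peaks lie beyond the axes. The column of points at the left edge is the lowest background in the table, 2.48, at which fold follows from pileup alone, and the 3 purple points farthest right are mucin peaks with 58 to 126 fragments over backgrounds of 33.0 to 43.7.

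This floor of the background held for 40 of the 167 peaks (24.0%, 18.1% to 31.0%) and for 24.5% of all peaks. At the floor 13 fragments give 5.64-fold and 14 fragments give 6.05-fold, which is why these values recur in several families. The median background of the group was 3.42 (2.87 to 3.67) and that of all peaks 3.26 (3.11 to 3.52). High background was found under 18 peaks of the group (10.8%, 6.93% to 16.4%), against 9.99% of all peaks. Peak length had a median of 331 bp (304 to 380 bp), against 311 bp (305 to 320 bp) over all peaks, and 7 peaks (4.19%, 2.05% to 8.40%) were 1000 bp or longer, against 2.34%.

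By position, introns held most of the group. In all, 98 peaks (58.7%, 51.1% to 65.9%) were intronic, against 44.9% of all peaks (43.3% to 46.6%), and 46 (27.5%, 21.3% to 34.8%) were intergenic, against 40.5% (38.8% to 42.1%). A peak could enter the group only if its nearest gene had a database name, and over the 2643 peaks with a Swiss-Prot or KEGG name 52.4% (50.5% to 54.3%) were intronic and 33.4% (31.6% to 35.2%) intergenic. The intervals of the group overlap those of the named peaks for both classes. Exons held 13 peaks (7.78%, 4.61% to 12.9%), against 5.98% of named and 5.25% of all peaks. Of the 13, 9 were near genes with a mucin match, and each of these 9 had the word in a single database. Counted once per gene, at its peak of highest fold, the intron share was 54.0%, against 45.2% over all genes, named or not. This share was not computed over the named genes alone.

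**Figure D3:**
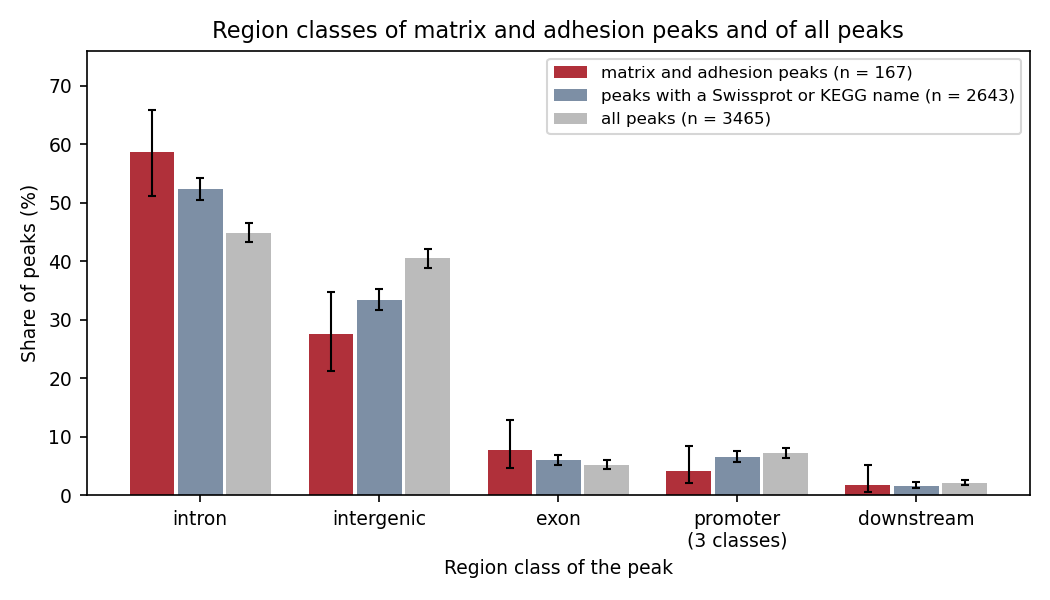
Share of peaks (%) in each region class for the 167 matrix and adhesion peaks (red), the 2643 peaks with a Swiss-Prot or KEGG name (blue-grey) and all 3465 peaks (light grey); bars start at 0 and error bars are Wilson 95% intervals. The intron bars stand at 58.7%, 52.4% and 44.9% and the promoter bars at 4.19%, 6.55% and 7.24%.

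The promoter classes, named for 1, 2 or 3 kb, held 7 peaks (4.19%, 2.05% to 8.40%), against 7.24% of all peaks and 6.55% of named peaks, and the interval covers both. The 7 belonged to genes matching ITFG3, collagen XII, ADAMTS18 (ADAMTS6 in KEGG), ADAM12, mucin-2 (M.coruscus_chr11_2124, 1778 bp upstream, 24 fragments, 4.59-fold), MUC5AC and MARCO. Of the 7 summits, 6 lay upstream of the TSS and that of the ADAMTS18 match lay 35 bp downstream. In promoter(1k) there were 3, in promoter(2k) 3 and in promoter(3k) 1. Their folds ran from 2.59 to 16.5 with a median of 5.14, against a median of 4.53 over all promoter peaks. Among the larger families, hemicentins, cadherins and matrix glycoproteins had 0 promoter peaks.

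Inside genes the intron peaks lay far from the start. Their distance to the TSS had a median of 23950 bp and a range of 528 to 203878 bp, against a median of 18842 bp over all intron peaks and 20515 bp over those with a name. More than 50 kb from the TSS were 30 of the 98 (30.6%, 22.4% to 40.3%), against 18.3% (16.4% to 20.4%) of named and 16.7% (14.9% to 18.6%) of all intron peaks, and these intervals do not overlap. The 30 peaks came from 22 genes. With 1 intron peak for each gene the share was 30.8% (20.9% to 42.8%), against 17.6% (15.4% to 20.0%) of the named genes. Within 5 kb of the TSS were 9 of the 98 (9.18%, 4.91% to 16.5%), against 15.6% of all intron peaks. The lengths of the genes and of their introns were not measured here, and their part in these distances was not tested.

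**Figure D4:**
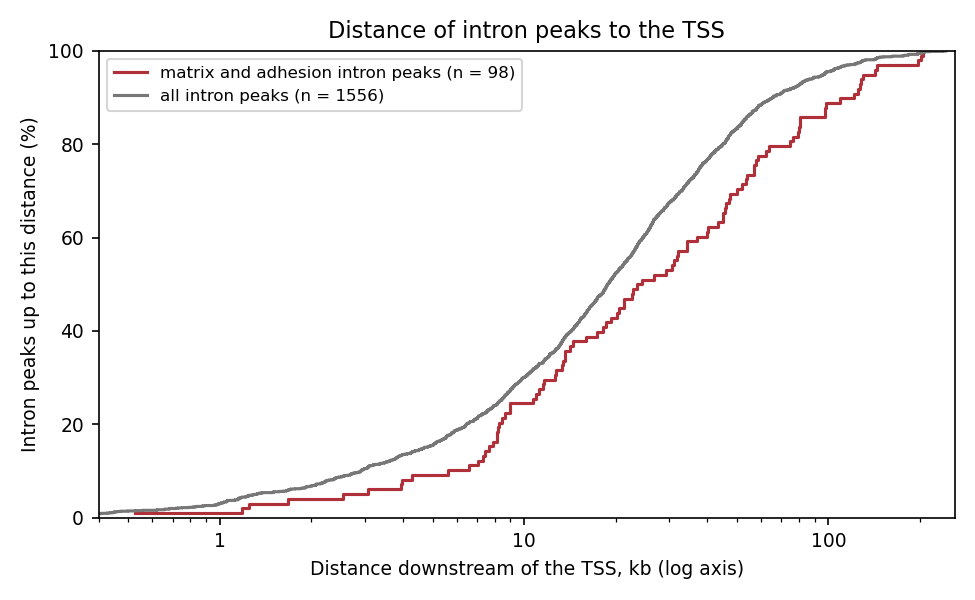
Cumulative share (%) of intron peaks up to a given distance downstream of the TSS (kb, log axis) for the 98 matrix and adhesion intron peaks (red) and all 1556 intron peaks (grey). The red line runs below the grey line over most of the range, with medians of 23950 bp and 18842 bp.

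Deep intron peaks were found in most families, with folds close to those of the other intron peaks. More than 50 kb from the TSS lay the 3 integrin intron peaks, 6 of 21 in hemicentins, 5 of 24 in collagens, 5 of 11 in the proteases, 4 of 10 in matrix glycoproteins, 4 of 8 in cadherins and 3 of 13 in mucins. Median fold was 5.12 beyond 50 kb and 5.04 up to it, against 4.84 and 4.81 over all intron peaks. By class, the median of the group was 5.04 in introns, 4.46 between genes and 4.43 in exons, against 4.84, 4.48 and 4.57 over all peaks.

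Some genes carried several peaks. Of the 113 genes, 32 (28.3%, 20.8% to 37.2%) had 2 or more peaks, against 21.8% (20.3% to 23.5%) of all nearest genes and 22.5% (20.7% to 24.4%) of named ones. With 3 or more peaks there were 14 (12.4%, 7.53% to 19.7%), against 7.61% of all and 7.70% of named genes. The intervals overlap at 2 or more and at 3 or more peaks. The highest number was 5, at a hemicentin-like, a collagen-like and a mucin-like gene, and over all genes it was 17. Neighbouring summits of 1 gene were 4318 bp apart in the median (54 gaps, 542 to 95841 bp), against 2611 bp over 917 gaps of all genes, and 18 gaps (33.3%, 22.2% to 46.6%) were 2000 bp or less, against 41.2%.

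**Figure D5:**
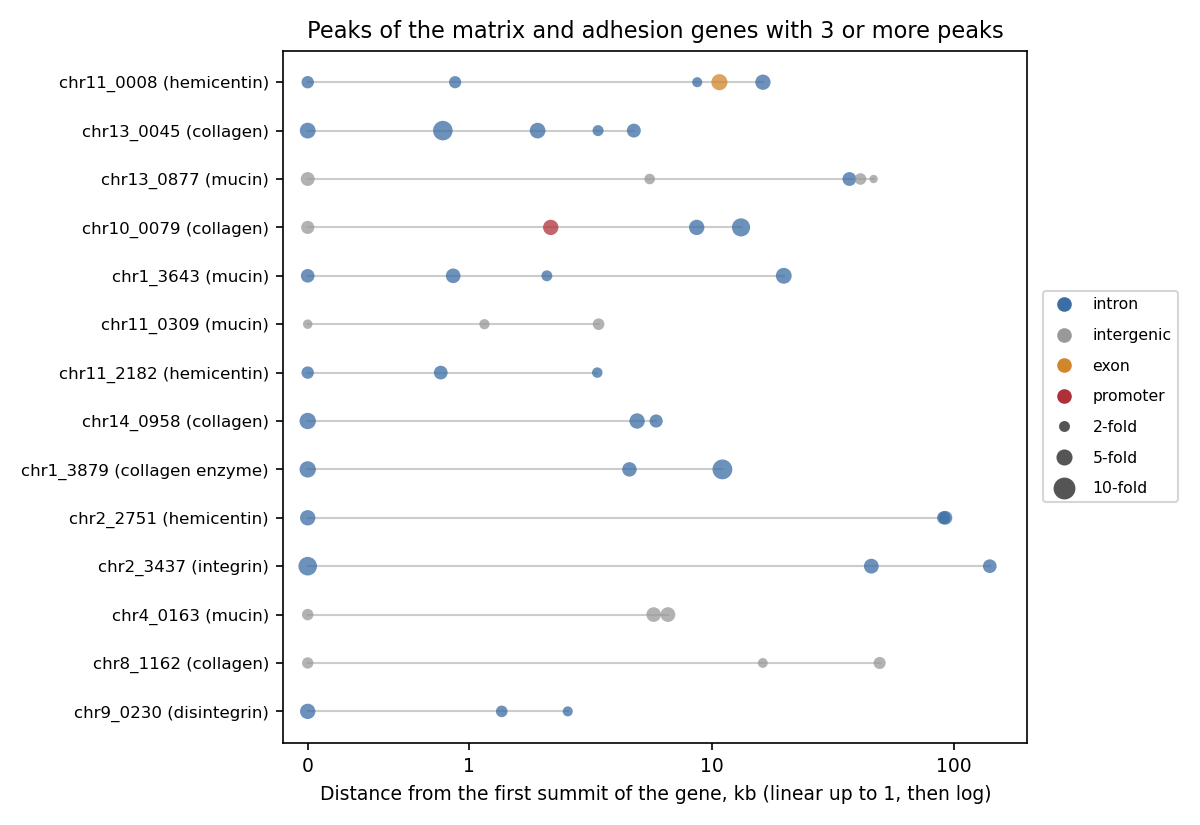
Positions of the peaks of the 14 matrix and adhesion genes with 3 or more peaks, as distance from the first summit in kb (linear up to 1, then log); points are peaks coloured by region class, with an area proportional to fold enrichment. The collagen VIII/X-like gene M.coruscus_chr13_0045 holds 5 intron peaks within 5290 bp, while the 3 intron peaks of the integrin-like gene M.coruscus_chr2_3437 span 140811 bp.

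Domains predicted by InterPro, which the choice of peaks did not use, were read beside the names, from the same predicted proteins. A surplus of domains named like the words of the rule therefore follows from the choice and is no independent support. Of the 167 peaks, 135 had an InterPro text, as had 2510 of all peaks. Thrombospondin type 1 domains were named for 25 of the 135 (18.5%, 12.9% to 25.9%), against 1.35% of all peaks with a text, EGF-like domains for 25 (18.5%), against 3.27%, and immunoglobulin domains for 22 (16.3%, 11.0% to 23.4%), against 1.71%. Von Willebrand factor type A domains were named for 16 (11.9%), against 0.996%, and cadherin repeats for 14 (10.4%), against 0.717%. By family, a von Willebrand factor type A domain stood in 13 of 32 collagen peaks with a text and a C1q or collagen helix term in 18 of them. Immunoglobulin domains stood in 16 of 27 hemicentin peaks and cadherin repeats in 12 of 18 cadherin peaks. A peptidase domain was named for only 5 of the 13 protease peaks with a text. Of the 44 mucin peaks, 18 had any InterPro text, 7 of them with an EGF-like domain.

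Match quality also differed. The KEGG E-value is the number of matches this good to be met by chance. It was 1e-50 or below for 42 of the 113 genes and above 1e-20 for 54. Both counts take the best KEGG match, whether or not its text holds a word of the rule. Genes without a KEGG match are in neither count. Swiss-Prot and KEGG both gave a word of the rule for 43 genes, KEGG alone for 59 and Swiss-Prot alone for 11. For the 63 peaks of the 43 genes named by both, the median fold was 5.00 and the intron share 74.6%, and these genes hold 1.59% exon peaks, against 58.7% intronic and 7.78% exonic peaks over the whole group.

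Genes of the same biology with other names gave a further 29 peaks. Proteins that connect integrins to actin had the highest folds, at 4 peaks of 3 genes with a median of 7.99. Talin-1, the protein that binds integrin tails and activates them, was matched by M.coruscus_chr11_2002, with an intron peak of 32 fragments at 13.3-fold, 33550 bp downstream of the TSS. Tensin, a focal adhesion protein, was the KEGG match of M.coruscus_chr13_0350 (47 fragments, 8.81-fold, intron) and of M.coruscus_chr13_0582 (7.18-fold and 5.67-fold, both intergenic, 4290 and 5005 bp upstream of the TSS).

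Basement membrane and proteoglycan genes had 13 peaks of 11 genes with a median of 4.83-fold. Peroxidasin, the enzyme that crosslinks collagen IV, was among the matches of 6 of these genes, the strongest an intron peak of M.coruscus_chr11_2302 with 24 fragments at 8.71-fold, 1151 bp downstream of the TSS. Usherin, a basement membrane protein, was matched by M.coruscus_chr2_0224, with an intron peak of 22 fragments at 9.27-fold. Aggrecan, a cartilage proteoglycan of vertebrates, was matched by M.coruscus_chr13_0257, with an exon peak at 4.74-fold. Semaphorin, plexin, tetraspanin and neurexin matches, receptors and ligands at cell contacts, had 11 peaks of 9 genes with a median of 5.24-fold, 10 of them in introns and the other 2354 bp upstream of a neurexin-1 match at 4.43-fold. Prolyl 4-hydroxylase, which stabilises the collagen helix, was matched by M.coruscus_chr14_1059, with 1 intergenic peak at 3.82-fold.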

How the data were processed

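ChIP and input reads were trimmed by the authors with Trimmomatic 0.36, checked with FastQC, aligned with Bowtie2 2.5.1 to an unpublished *M. coruscus* genome, and peaks were called on 1 ChIP library against 1 input library with MACS3 3.0.0a7. The deposited table gives as signal how many ChIP fragments pile up over a summit, as a ratio the fold enrichment over input background, the q value as −log10, and positions, lengths and TSS distances in bp. HOMER gave the region class and nearest gene. Library depths are not in this table, so pileup is the only depth used. Low pileups limit the precision of single folds.

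Background was computed as (pileup + 1) / fold. Peaks were matched by word, put in the first fitting family, and counted with pandas 2.3.3, SciPy 1.17.1 and NumPy 2.4.6 under Python 3.11.15, with plots by Matplotlib 3.10.9. The word matching, intervals and family counts were tested on simulated data. No test between groups was made. Genes were named if they had 2 or more peaks, 1 of the 3 highest folds of a family, the lowest fold, or a promoter or exon peak, and not all are described. Others were named after their values were seen. The members and lists were chosen with earlier results of these data known. The gene table at hand shares 0 identifiers with the peak table and was not used.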

Additional observations from a re-analysis of the deposited data

How the results depend on the processing

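Peaks of the group with a −log10 q of at least 3 had a median fold of 5.24, and over all peaks this cut raised it from 4.63 to 5.14. Those of at least 4-fold had 5.49 by construction, against 5.24 over all peaks. With this cut 21.2% were intergenic, against 38.6% over all peaks, named or not. Over the named peaks, without the cut, 33.4% were intergenic. With Swiss-Prot text alone the group shrank to 78 peaks of 54 genes, with 66.7% in introns and 2.56% in exons, at a median fold of 5.02. Alternatives chosen after seeing the data were genes named by both databases (63 peaks of 43 genes, 74.6% intronic, 20.6% intergenic, 1.59% exonic) and the group without mucin matches (69.1% intronic, 3.25% exonic, median fold 5.05). Taking promoter(1k) alone left 1.80% of peaks as promoter peaks. In the other 55 of 70 comparisons the value stayed within 1.5 times for a count and within the 95% interval for a share or median, among them dropping the uppermost 10% of background (149 peaks, median fold 5.00, 61.1% intronic). Over single families, 129 of 158 values stayed likewise.

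With 1 ChIP and 1 input library, there was no replicate to leave out, and variation between animals was not measured. No paired analysis was possible because no test was made. Families of 4 or 5 peaks have no interval for the median. Peak positions are relative to gene models not used here, and a nearest gene need not be the gene that a bound factor acts on.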

Other observations

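Words of the rule also occurred in the InterPro domain text of 46 peaks that the names left out. Some of these were already counted above with genes of the same biology, such as the usherin match M.coruscus_chr2_0224. Tenascin, contactin, hemicentin and cell adhesion were not searched for in that text. The highest folds were at M.coruscus_chr7_2887, a ZNRF3-like ubiquitin ligase gene whose InterPro text holds the word mucin (3 intron peaks, 12.1-fold, 7.63-fold and 5.64-fold), and at M.coruscus_chr10_0168, matching protein delta homolog 2 with a fibronectin term (28 fragments, 11.7-fold, intron). M.coruscus_chr9_2603, matching the receptor tyrosine kinase ROS, had a 7.90-fold intron peak, and M.coruscus_chr1_3672, matching a phospholipase D specific for GPI anchors with integrin-like repeats, had 3 intergenic peaks at 7.20-fold, 4.91-fold and 4.91-fold.

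Some genes of the group had nearby gene numbers. There were 10 pairs no more than 5 gene numbers apart on a chromosome, with their closest summits 51822 to 491400 bp apart. The same count was not made over all nearest genes, so it does not show that the group is clustered. The ITFG3-like gene M.coruscus_chr10_0097 was 2 numbers from M.coruscus_chr10_0095, which matches mucin-2 in KEGG and, at a weaker E-value, ADAMTS14 in Swiss-Prot, with summits 51822 bp apart, and the collagen VI-like genes M.coruscus_chr7_1348 and M.coruscus_chr7_1349 were adjacent.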
